A study of Caenorhabditis elegans with 2 samples.

Results

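The peaks described here are those where MDT-29 was found at the promoter of a protein-coding gene and away from genes of small structured RNAs. They were chosen from the authors' main list of 1705 peaks, made from both samples, by 2 distances. The summit, the position of highest signal within a peak, was at most 500 bp from where a protein-coding transcript begins and more than 250 bp from any tRNA, snRNA or snoRNA gene. Of the 1705 peaks, 560 met the rule, and 82 further promoter peaks were left out because a small RNA gene was near. The other main peaks fell into gene bodies (327), the space between genes (465) and the surroundings of small RNA genes (353).

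Chromatin immunoprecipitation with sequencing (ChIP-seq) was used to map the protein along the genome of Caenorhabditis elegans, in whole L4 larvae 48 hours old. All worms were of strain RJP4521, in which a degron and green fluorescent protein (GFP) had been inserted by CRISPR at mdt-29 on chromosome III. The labels spell the insertion rp133 (Degron::GFP::mt-29) in one field and give an mdt-29-eGFP fusion in another. Worms were hatched after bleaching and held as starved L1 larvae to synchronise them, chromatin was sheared by sonication, and an antibody against GFP was used. There was 1 group with 2 biological replicates, both of this strain, and the sex of the worms was not collected. Depth per sample is not known, since read totals were not used here. All 95% intervals below are exact (Clopper-Pearson) and cover counting error only. An untagged strain was not analysed here, so how much of a peak's signal would appear without the tag was not tested. No comparison between conditions was possible, and peaks are not replicates, so differences between kinds of promoters are given as descriptions without a test. Because whole worms were used, binding in fewer cells and weaker binding in each cell cannot be told apart.

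Mediator is the large coactivator complex that carries information from transcription factors bound to DNA to RNA polymerase II at promoters. MDT-29 is the worm Med29, a subunit of the tail module, the part of the complex through which many activators make contact. In worms neighbouring genes are often arranged head to head, so that a single stretch of DNA holds the start of both, and such a promoter is called divergent. Many worm transcripts have their first bases replaced by a spliced leader, so that an annotated 5' end is often a splice site and the true start of transcription lies further upstream.

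The DNA under the strongest peaks is shown first, because it lets the positions and motifs given below be read in place. Each stretch is centred on the summit and written on the plus strand of WBcel235 (ce11), taken from the RefSeq genome. Capitals mark each GAANNTTC, the paired form of the heat shock element to which the heat shock factor HSF-1 binds, found by its letters alone. The first 3 are the strongest one-gene promoter peaks among those whose window could be shown and held no exon, at chrIII:9054007-9054107, chrIV:17278514-17278614 and chrX:13105053-13105153.
R107.5: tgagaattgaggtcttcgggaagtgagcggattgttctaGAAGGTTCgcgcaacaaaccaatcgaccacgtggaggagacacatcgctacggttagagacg
hsp-1: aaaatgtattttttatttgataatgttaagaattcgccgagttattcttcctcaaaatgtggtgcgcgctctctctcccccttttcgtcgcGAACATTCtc
F17H10.1: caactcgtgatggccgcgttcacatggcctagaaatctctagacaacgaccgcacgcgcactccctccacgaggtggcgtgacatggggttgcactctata
The other 3 are the strongest divergent promoter peaks chosen in the same way, at chrII:11759419-11759519, chrIII:8447098-8447198 and chrV:14685738-14685838, each named by both genes.
F44E5.4 and F44E5.5: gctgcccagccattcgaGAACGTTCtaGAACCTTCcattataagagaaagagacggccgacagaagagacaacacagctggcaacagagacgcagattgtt
rpn-3 and hsp-110: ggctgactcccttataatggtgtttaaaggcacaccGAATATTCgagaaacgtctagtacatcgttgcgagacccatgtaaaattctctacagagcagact
C47E8.4 and hsp-90: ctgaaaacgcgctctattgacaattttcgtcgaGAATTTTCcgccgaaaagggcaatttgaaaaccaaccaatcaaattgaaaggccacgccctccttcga
A paired element was present in 5 of these 6 windows, and the window of F44E5.4 and F44E5.5 held 2 of them close together. The window of F17H10.1 held none. These windows were picked from the strongest peaks, so this count does not describe the promoter peaks as a set. The share in windows of this length over all peaks or all promoters is not given here. In the wider windows used below, the share over all promoter peaks was only a little above that of all promoters.

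A gene is called marked below when a promoter peak lay within 500 bp of a start of any of its transcripts. In all 621 of 19973 nuclear genes that encode proteins were marked (3.11%). Most of them had a single peak, 45 had 2 and 3 genes had 3. The genes with 3 peaks were hsp-1, pck-2 and C34B4.2. Genes that carry a symbol were marked in 431 of 10896 cases (3.96%), against 190 of 9077 genes (2.09%) known by a sequence name only.

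Most promoter peaks belonged to a single gene. Of the 560 peaks, 449 (80.2%, 95% interval 76.6 to 83.4%) had 1 gene within 500 bp and 94 (16.8%, 13.8 to 20.1%) lay at a divergent pair. A further 14 peaks had 2 genes on the same strand, 2 had a pair with overlapping heads and 1 had 3 or more genes. The 94 divergent peaks marked 91 pairs and thus 182 genes, and which gene of a pair the protein was serving cannot be told from the position.

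The share of divergent promoters among the peaks was set beside what the annotation holds. When a point was placed at the median offset of the peaks, 137 bp upstream of the 5' end of every gene, 85.2% of points fell at one gene and 12.2% at a divergent pair. Counting each of the 18512 promoters once, 6.76% were divergent. A pair was found by such a point only if the point was within 500 bp of both 5' ends. Pairs with heads far apart were thus left out, while a peak between them could still be divergent. The shares of peaks and of points are therefore not fully alike. Of the one-gene promoters, 388 of 16923 were marked (2.29%, 2.07 to 2.53%), and of the divergent promoters 80 of 1251 (6.39%, 5.10 to 7.90%). The 1251 are the pairs found by a point, so the 80 need not equal the 91 pairs marked by a peak. The intervals of both shares cover counting only, and the share of peaks called divergent follows the width of the window: it was 8.97% with a window of 250 bp. The shares of the annotation given here are for 500 bp only, so the 8.97% cannot be set beside them.

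The X chromosome had few divergent peaks. There 3 of 68 promoter peaks were divergent (4.41%, 0.919 to 12.4%), against 91 of 492 on the autosomes (18.5%, 15.2 to 22.2%). The annotation differs in the same way, since 2.17% of promoters on X and 7.52% of those on autosomes are divergent. Marked genes made up 2.42% of those on X (66 of 2731) and 3.22% of those on autosomes (555 of 17242), with 4.62% on chromosome III and 2.26% on chromosome II as the highest and lowest chromosomes.

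Summits lay mostly upstream of the annotated start. Of the 560 summits, 417 (74.5%, 70.6 to 78.0%) were upstream of the nearest 5' end, 142 downstream and 1 exactly on it. The median offset was −137 bp, with quartiles of −265 and 2.5 bp, where a negative offset is upstream. By place, 57.0% of summits lay between genes, 28.6% in an exon and 14.5% in an intron. Of the downstream summits, 103 of 142 were in an exon.

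One-gene and divergent promoters differed in where the summit lay. At one-gene promoters 323 of 449 summits were upstream (71.9%, 67.5 to 76.0%), with a median offset of −150 bp and quartiles of −289 and 26 bp. At divergent promoters 81 of 94 were upstream (86.2%, 77.5 to 92.4%), with a median of −99.5 bp and quartiles of −190 and −34.5 bp. Summits within 100 bp of the nearest 5' end made up 23.6% (19.8 to 27.8%) of one-gene peaks and 46.8% (36.4 to 57.4%) of divergent peaks. Part of this follows from the definition, since a point between 2 heads is upstream of both and has the nearer of 2 starts to be measured from.

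**Figure D1:**
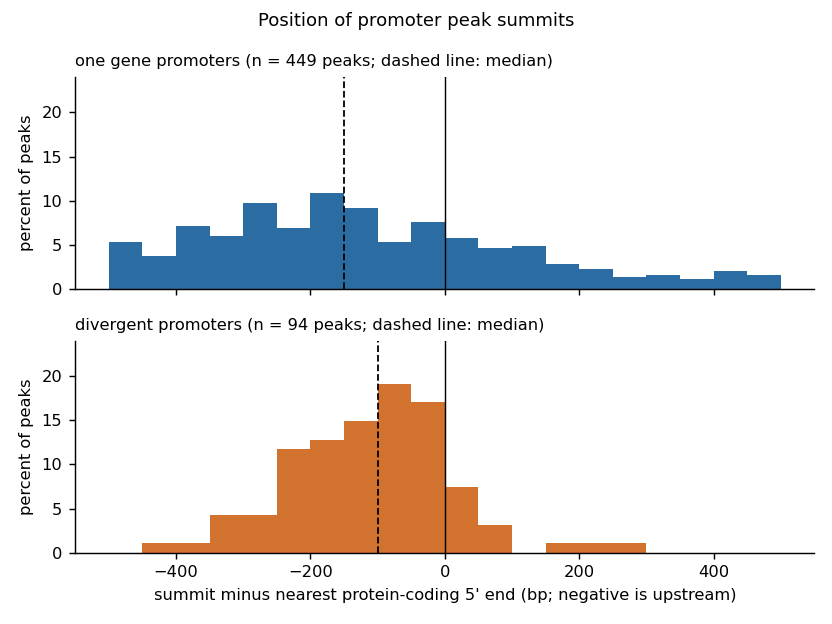
Distance from the nearest protein-coding 5' end to the peak summit in bp (x axis, negative upstream), as the percent of peaks in bins of 50 bp (y axis), for one-gene promoters above and divergent promoters below. The dashed medians stand at −150 bp for 449 one-gene peaks and at −99.5 bp for 94 divergent peaks, and the one-gene peaks spread further to both sides.

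Where the window ended was not a natural edge. Numbers of peaks away from small RNA genes fell off smoothly with distance, from 154 peaks within 100 bp of a 5' end and 158 between 100 and 200 bp to 60 between 400 and 500 bp and 45 in the next 100 bp. The peaks just inside the limit were those of T21B10.3, at 499 bp with a signal of 117, and F46H5.2, at 495 bp with a signal of 81.8. Just outside were those nearest to vps-39, at 504 bp with a signal of 161, and Y62F5A.12, at 508 bp with a signal of 171. Signal is the value of strength that the authors' processing gave to each peak, and whether it is on one scale across lists is not known.

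At divergent promoters the summit usually lay between the heads. This was so for 82 of 94 peaks (87.2%, 78.8 to 93.2%). The median distance from the midpoint between both 5' ends was 78 bp over the 94 peaks. Part of this follows from the rule, since the summit had to be within 500 bp of both 5' ends. Where the heads are more than 500 bp apart, it can only lie between them. How often a point placed without regard to binding would lie there was not counted. The 2 heads were 394 bp apart at the median over these peaks, with quartiles of 260.5 and 530 bp and a range of 15 to 900 bp. The median was 342 bp (quartiles 217 and 493 bp) over the 1251 divergent promoters found in the annotation by placed points. Those points stood 137 bp upstream of a 5' end and had to be within 500 bp of both, so the widest pairs were left out. Both medians are therefore not over like sets. The median offset was −99.5 bp from the nearer gene and −291.5 bp from the farther one. In 63 of 94 peaks the summit was nearer to one gene by more than 100 bp, and the nearer gene was on the plus strand in 47 and on the minus strand in 47.

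**Figure D2:**
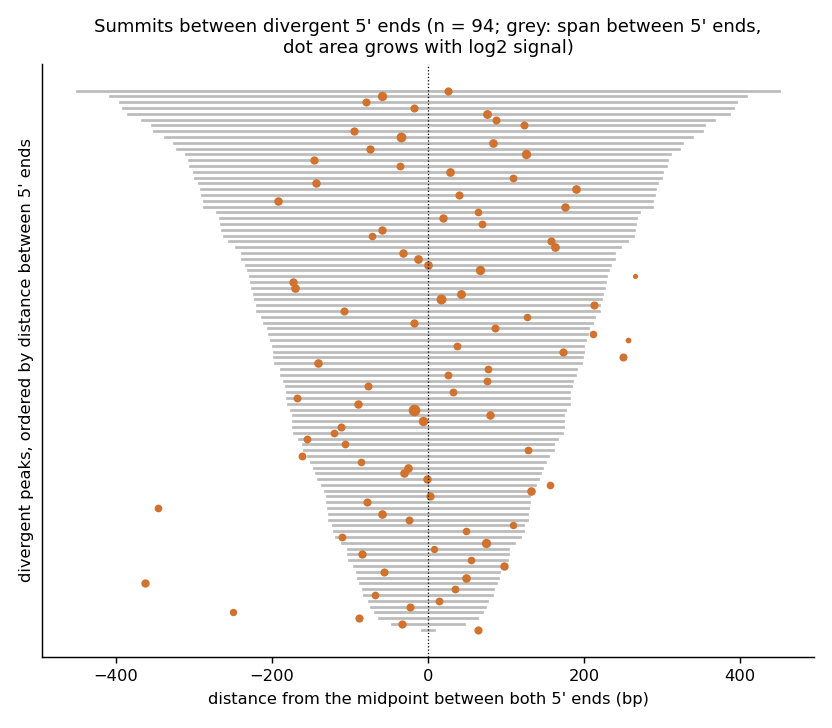
Each of the 94 divergent peaks as a row, ordered by the distance between both 5' ends (y axis, shortest at the bottom), with the span between these ends as a grey line and the summit as a dot, in bp from the midpoint (x axis); the dot's area grows with log2 signal. Dots lie inside the grey span in 82 of 94 rows and to either side of the midpoint.

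The 5 strongest divergent peaks show this geometry. The peak of F44E5.4 and F44E5.5, a head-to-head pair of Hsp70 genes, had a signal of 2122 in replicate 1 and 2807 in replicate 2, and its summit was 17.5 bp from the midpoint of a span of 351 bp. The peak between rpn-3, a subunit of the proteasome lid, and hsp-110, an Hsp110 nucleotide exchange factor, had 307 in replicate 1 and 382 in replicate 2, with the summit 17 bp from the midpoint of 444 bp. The peak of C47E8.4, which encodes a FAM50 homolog, and hsp-90, the cytosolic Hsp90, had 285 and 353 in replicates 1 and 2 and lay within 34.5 bp of the midpoint of 675 bp. For hsp-90 the distance is to the start of a shorter transcript, since the gene as annotated begins at position 14684918 of chromosome V, before the peak. C47E8.4, on the minus strand, begins at 14685485, so both genes as annotated overlap. The pair thus counts as divergent here by an inner start.

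The remaining pair of peaks among these 5 were weaker. The peak between drr-2, an RNA-binding protein, and set-16, an MLL-like histone methyltransferase, had 221 in replicate 1 and 195 in replicate 2, with its summit 6 bp from the midpoint of 346 bp. The peak of Y55F3AR.2, a protein with a thioredoxin domain, and cct-8, a subunit of the cytosolic chaperonin, had 167 in replicate 1 and 229 in replicate 2. Its summit was 185 bp upstream of Y55F3AR.2 and 436 bp upstream of cct-8, and so stood 125.5 bp off the midpoint. In these 5 peaks the summit was thus close to the middle in all but that of Y55F3AR.2 and cct-8, and replicate 2 had the higher value in all but that of drr-2 and set-16.

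In 5 of the 91 pairs both genes were of the same listed kind. These were the Hsp70 pair F44E5.4 and F44E5.5, the small heat shock genes hsp-16.2 and hsp-16.41, trap-3 and sec-61.B of the translocation machinery of the endoplasmic reticulum, and the histone pairs his-59 with his-60 and his-67 with his-68. The peak of hsp-16.41 and hsp-16.2 had a signal of 134 in replicate 1 and 215 in replicate 2, and lay 36 bp upstream of hsp-16.41 and 185 bp upstream of hsp-16.2. The peak of trap-3 and sec-61.B had 103 in replicate 1 and 135 in replicate 2. Of the 91 pairs, 9 had both genes in some listed kind, 40 had one and 42 had neither. The same counts over the 1251 divergent promoters of the annotation were not made, also not for pairs of the same kind. Whether marked pairs differ from other pairs in this can therefore not be told. Of the 413 distinct genes at one-gene promoter peaks, 93 were in a listed kind, against 3552 of all 19973 genes.

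Signal at the promoter peaks was close to that of the whole list. The median was 97.9 over the 560 peaks, with quartiles of 81.1 and 142, against 99.5 over all 1705 main peaks. It was 89.8 for peaks in gene bodies, 101.1 for those between genes and 109 for those near small RNA genes. In the lists of the single samples the promoter peaks had medians of 46.9 in replicate 1 and 57.6 in replicate 2. Replicate 2 was higher in 409 of the 552 promoter peaks with a value in both samples, by a median ratio of 1.24, and this includes any difference in scale between the samples.

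One-gene peaks had lower signal than divergent peaks. The median was 93.7 (quartiles 79.5 and 135) for one-gene peaks and 125 (94.0 and 171) for divergent peaks, a ratio of 0.750. In replicate 1 the medians were 45.8 for one-gene and 51.2 for divergent peaks (ratio 0.896), and in replicate 2 they were 55.5 and 73.6 (ratio 0.755). The direction was the same in both samples, while the ranges overlapped widely. Among the peaks that pass a global irreproducible discovery rate (IDR, low for peaks whose rank repeats) of 0.001, the ratio was 0.959.

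**Figure D3:**
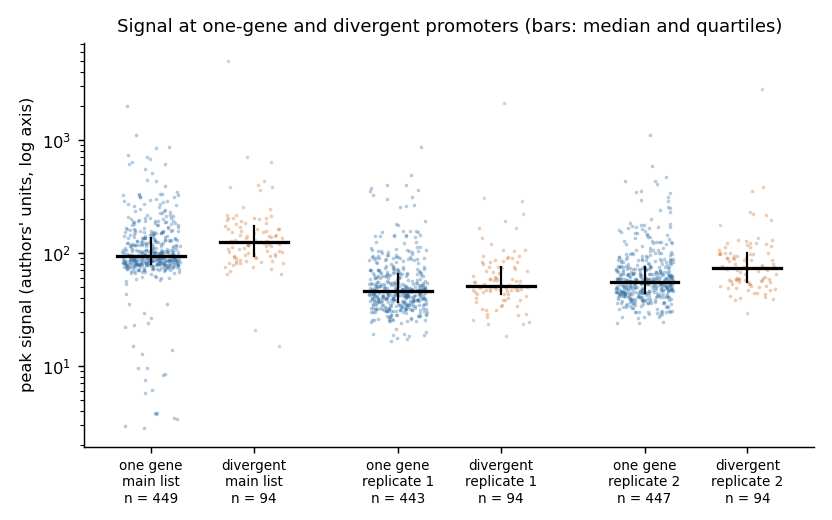
Peak signal in the authors' units on a log axis (y) for one-gene and divergent promoter peaks in the main list, in replicate 1 and in replicate 2 (x), with 1 dot per peak, the median as a thick bar and the quartiles as a thin bar. The one-gene median lies below the divergent median in each list, at 93.7 against 125 in the main list, and the clouds of dots overlap.

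The promoter peaks were also looked for in the lists of the single samples. The main list was made from these same samples, so a peak found there is not an independent repeat. Of the 560 promoter peaks, 187 (33.4%, 29.5 to 37.5%) overlapped a peak in the thresholded lists of both samples, against 32.3% of all main peaks. The list of replicate 1 held 240 of them (42.9%) and that of replicate 2 held 307 (54.8%), against 42.5% and 55.8% of all main peaks, and 200 were in neither list. These shares are near those of the whole series. For one-gene peaks the share in both samples was 31.0% (26.7 to 35.5%), and for divergent peaks it was 46.8% (36.4 to 57.4%).

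Strong promoter peaks lay upstream more often than weak ones. When the 560 peaks were cut into 4 groups of 140 by signal, 90.7% (84.6 to 95%) of summits were upstream in the strongest group, then 80% and 68.6%, and 58.6% (49.9 to 66.8%) in the weakest. The median offset went with it, at −167, −149.5, −111 and −79 bp. Divergent peaks made up 25.7%, 21.4%, 12.1% and 7.86% of the groups. Peaks found in both samples numbered 134, 48, 0 and 5 of 140.

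The same order held within each sample's own list. Among the promoter peaks of the list of replicate 1, 90.6% of those above the median signal and 75% of those below it were upstream, and in replicate 2 these shares were 88.2% and 68.2%. Divergent peaks made up 22% of the stronger and 15.6% of the weaker peaks in replicate 1, and 28.8% and 14.7% in replicate 2. Within one-gene promoters, upstream peaks had a median signal of 99.5 and downstream peaks 83.8, and 38.7% of upstream peaks were found in both samples, against 11.1% of downstream peaks. Within divergent promoters the medians were 130 for the 81 upstream peaks and 90.1 for the 12 downstream peaks.

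**Figure D4:**
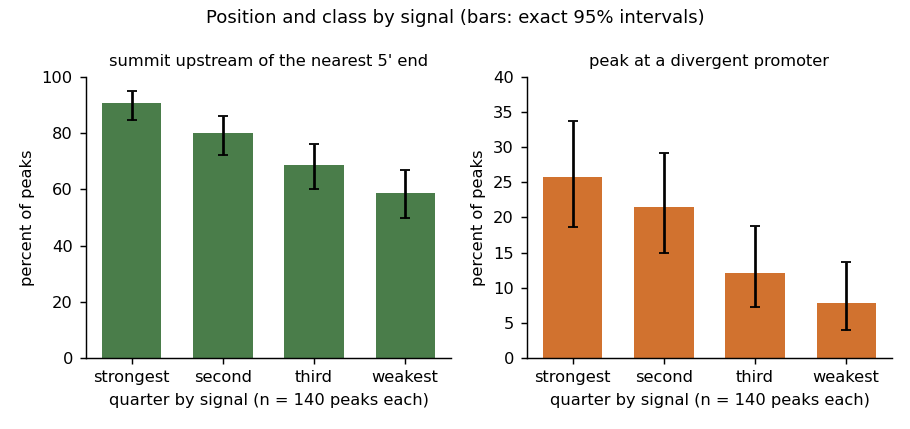
Percent of promoter peaks (y) with the summit upstream of the nearest 5' end (left) and at a divergent promoter (right), in groups by signal of 140 peaks each (x, strongest first), with exact 95% intervals. The left bars step down from 90.7% to 58.6% and the right bars from 25.7% to 7.86%.

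The weakest group included 15 peaks with a signal under 10. One of them, the peak of nhr-40, had 3.85 in the main list, with 31.6 in replicate 1 and 70.7 in replicate 2. Whether these values of the main list are on the scale of the others is not known. Some weaker peaks also share their region with a stronger one. The second peak of pck-2, 231 bp downstream of a 5' end, had a signal of 312 in the main list and took the same single-sample values as the first, 394 and 430, since it lies in the same called region.

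The strongest promoter peaks at single genes were a mixed group. R107.5, which encodes an uncharacterised protein, had a signal of 864 in replicate 1 and 1104 in replicate 2, with the summit 267 bp upstream. The constitutive Hsp70 gene hsp-1 had 485 and 584 in replicates 1 and 2, at 395 bp upstream. Both were far above the median of promoter peaks in each sample.

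Downstream summits were the exception among the 25 strongest peaks, of which 22 were upstream, 17 at one gene and 8 at divergent pairs. The 3 downstream ones were those of tent-5, pck-2 and K08F11.1. The peak of tent-5, a noncanonical poly(A) polymerase, had 373 in replicate 1 and 469 in replicate 2 and lay 100 bp past the start of a transcript. That start is an inner one. The summit was at position 5379932 of chromosome I, and the gene, on the minus strand, begins at 5384508. The peak of pck-2, phosphoenolpyruvate carboxykinase of gluconeogenesis, lay 25 bp past a start, with 394 in replicate 1 and 430 in replicate 2. It too lay inside the gene, with the summit at position 7869121 of chromosome I and the gene's beginning at 7866136. The peak of K08F11.1 had 310 in replicate 1 and 294 in replicate 2, and lay 449 bp past a start and beyond the annotated end of that short gene.

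The other strong one-gene peaks lay upstream. That of dnj-13, a J-domain co-chaperone of Hsp70, had 325 in replicate 1 and 407 in replicate 2. The peak of tasp-1, a homolog of the protease taspase, had 354 in each sample, and that of F17H10.1, annotated as a GPI inositol-deacylase, had 359 in replicate 1 and 312 in replicate 2. The peak of unc-23, a BAG-domain co-chaperone needed for muscle attachment, had 296 and 334 in replicates 1 and 2 and lay 38 bp upstream.

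Further down the list, mog-4, a splicing RNA helicase, had 265 in replicate 1 and 289 in replicate 2, at 253 bp upstream. The peak of srh-2, a predicted chemoreceptor, had 257 in replicate 1 and 249 in replicate 2, and that of tos-1 had 192 and 240. For srh-2 the summit, at position 731534 of chromosome V, was upstream of an inner transcript start only. It lay inside the gene as annotated, which begins at 728301. The peak of cdc-48.1, the p97 ATPase that extracts ubiquitinated proteins, had 152 in replicate 1 and 228 in replicate 2, and mtcu-2, a homolog of the mitochondrial tRNA-modifying enzyme MTO1, had 156 and 169. All 25 were found in both samples, and replicate 2 had the higher value in 19.

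To see which kinds of genes were marked, 34 lists of genes by function or family were counted against the 3.11% of all protein-coding genes. These lists hold 3552 genes, and 151 of the 621 marked genes are in one of them. The other 470 marked genes (75.7%) are in none, so the lists describe a minor part of the set. The interval of the share lay above 3.11% for 16 lists and below it for 3. No test was made, and lists can share genes.

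Protein folding genes, taken from 4 of the lists, were marked in 27 of 87 cases (31.0%, 21.5 to 41.9%). Of the 25 heat shock protein genes, 10 were marked (40%, 21.1 to 61.3%), all by peaks found in both samples and 7 of them at divergent promoters. Beside those named above they included hsp-3, an Hsp70 of the endoplasmic reticulum, with 141 in replicate 1 and 150 in replicate 2, hsp-70, an inducible Hsp70, with 88.1 and 124, and hsp-6, the mitochondrial Hsp70, with 105 and 126. All 10 also passed the stricter IDR of 0.001.

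Of 10 chaperonin genes, most of them subunits of the cytosolic complex that folds actin and tubulin, 4 were marked (12.2 to 73.8%). The strongest were the peaks of cct-8, given above, and Y22D7AL.10, which RefSeq annotates as a mitochondrial heat shock protein, with 141 in replicate 1 and 175 in replicate 2. Of 29 J-domain genes 6 were marked (20.7%, 7.99 to 39.7%), with dnj-12 after dnj-13 at 89.9 in replicate 1 and 121 in replicate 2. Of 24 cyclophilin or FKBP genes, which are prolyl isomerases, 7 were marked (29.2%, 12.6 to 51.1%). These were weak peaks: the strongest, those of fkb-6 and cyn-7, had 134 and 126 in the main list, only 1 of the 7 genes had its peak found in both samples, and only 1 passed the stricter IDR.

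Among genes of protein synthesis 28 of 154 were marked (18.2%, 12.4 to 25.2%). Of 80 cytosolic ribosomal protein genes 21 were marked (26.3%, 17 to 37.3%), led by rpl-3 with 256 in replicate 1 and 343 in replicate 2 and rpl-35 with 181 and 251. Among the pairs were rpl-15 with K11H12.8, an inner-membrane protein of the growth hormone-inducible transmembrane family, at 165 and 221, and rpl-20 with Y17G9B.5, an ECSIT homolog, at 191 and 175. The summits stood back from the annotated starts, at a median of −265 bp over the marked genes. With a window of 250 bp, 6 of the 21 remained in the count, so the number rests on peaks between 250 and 500 bp. None of the 70 mitochondrial ribosomal protein genes was marked (exact interval up to 5.13%).

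Translation factors were marked in 6 of 42 cases (14.3%, 5.43 to 28.5%), led by the elongation factor genes eef-1G, with 82.2 in replicate 1 and 105 in replicate 2, and eef-2, with 85.6 and 97.6. Of 32 aminoacyl-tRNA synthetase genes only ears-2 was marked. The secretory pathway, which includes genes of the translocon, signal recognition and the COPII coat, had 10 of 38 genes marked (26.3%, 13.4 to 43.1%). Its strongest peak was that of sec-61.G, a subunit of the translocon, with 156 in replicate 1 and 176 in replicate 2, and the pair trap-3 and sec-61.B followed.

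In energy metabolism, 9 of 46 genes of mitochondrial respiration were marked (19.6%, 9.36 to 33.9%), with cox-5A, a cytochrome c oxidase subunit, at 144 in replicate 1 and 169 in replicate 2 and cox-5B at 106 and 97.2. Of 25 genes of glycolysis and gluconeogenesis 6 were marked (24%, 9.36 to 45.1%), led by pck-2 and by aldo-2, an aldolase, at 177 in replicate 1 and 160 in replicate 2. Lipid genes were marked by weaker peaks. Among them were fat-4 and elo-1, a desaturase and an elongase of polyunsaturated fatty acids, at 38.8 and 74.2 and at 63.4 and 44.3 in replicates 1 and 2, in a list with 3 of 16 genes marked. In the list of lipid synthesis and regulation 5 of 26 were marked, by scp-1 and pmt-1 first, at 109 and 96.4 in the main list, and no peak of these 5 genes was found in both samples or passed the stricter IDR.

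Smaller lists had few marked genes and wide intervals. Yolk proteins are encoded by 6 vitellogenin genes, of which 2 were marked, vit-2 at 62.5 in replicate 1 and 87.0 in replicate 2 and vit-6 at 39.2 and 52.6. Of 20 subunits of the V-ATPase proton pump, 3 were marked, first vha-8 and vha-1 at 162 and 127 in the main list, and with a window of 250 bp none was. Of 29 genes of ubiquitin and its conjugation 4 were marked, with ubc-6 at 93.6 in replicate 1 and 98.4 in replicate 2 and ubc-25 at 45.2 and 56.2. Of 33 proteasome subunit genes only rpn-3 and pbs-5 were, and rpn-3 shares its peak with hsp-110.

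Histone genes were marked in 8 of 81 cases (9.88%, 4.36 to 18.5%), led by his-37, an H4 gene, with 112 in replicate 1 and 166 in replicate 2, and by htz-1, the H2A.Z variant, with 61.2 and 111. Of these 81 genes, 63 have a divergent partner, and near-identical copies of histone genes can share reads, so their peaks are uncertain. Of 26 bZIP transcription factor genes 6 were marked (23.1%, 8.97 to 43.6%), with zip-4 and zip-2 first, at 103 and 99.4 in the main list. No peak of these 6 genes was found in both samples, 1 passed the stricter IDR, and the list of replicate 1 alone marked none. The list also holds xbp-1, the regulator of the unfolded protein response, with 30.6 in replicate 1 and 65.2 in replicate 2.

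For the general transcription machinery the intervals held the share of all genes. Of 28 Mediator subunit genes only mdt-26 was marked, at 46.9 in replicate 1 and 72.4 in replicate 2, and mdt-29 itself was not. Of 55 genes of RNA polymerases and general factors 4 were marked (7.27%, 2.02 to 17.6%), first rpac-19, a subunit shared by polymerases I and III, and rpoa-1, of polymerase I, and of 48 splicing factor genes 2, rsp-2 and uaf-2. Nuclear hormone receptors, a family that is very large in worms, had 8 of 274 genes marked (2.92%, 1.27 to 5.67%). The strongest was nhr-17 at 137 in replicate 1 and 156 in replicate 2, then nhr-68 at 84.6 and 121. Of 94 homeobox genes 1 was marked, ceh-38.

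Lists of genes by tissue had few marked genes, and their intervals held 3.11%. Of 37 muscle genes 4 were marked (10.8%, 3.03 to 25.4%), first unc-23 and act-2, and of 29 intestinal genes 3 (10.3%, 2.19 to 27.4%), first cpr-6 and act-5. These lists do not hold markers of single tissues only. The gene act-5 is in both and was counted in each, and unc-23 is the co-chaperone named above. No intestinal gene passed the stricter IDR. Of 33 neuronal genes only unc-25 was marked, and of 41 genes of the oogenic germline only egg-1. Collagen genes, which build the cuticle, were marked in 2 of 176 cases (1.14%, 0.138 to 4.04%), col-42 and col-19. Genes of detoxification were marked in 2 of 185, gst-1 and gst-9. None of 31 major sperm protein genes was marked (exact interval up to 11.2%).

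The 3 lists whose interval lay below 3.11% were large gene families. Chemoreceptor genes were marked in 6 of 1308 cases (0.459%, 0.169 to 0.996%). The strongest of these peaks were those of srh-2, which lay inside the gene, and of srv-1. F-box protein genes were marked in 2 of 322 (0.621%, 0.0753 to 2.23%), fbxb-85 and fbxb-72. C-type lectin genes were marked in 2 of 240 (0.833%, 0.101 to 2.98%), clec-196 and clec-221. The summit that marked clec-196 lay downstream of its start and beyond the annotated end of that short gene. The same was so for rpl-31 and his-58, counted in their lists above.

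**Figure D5:**
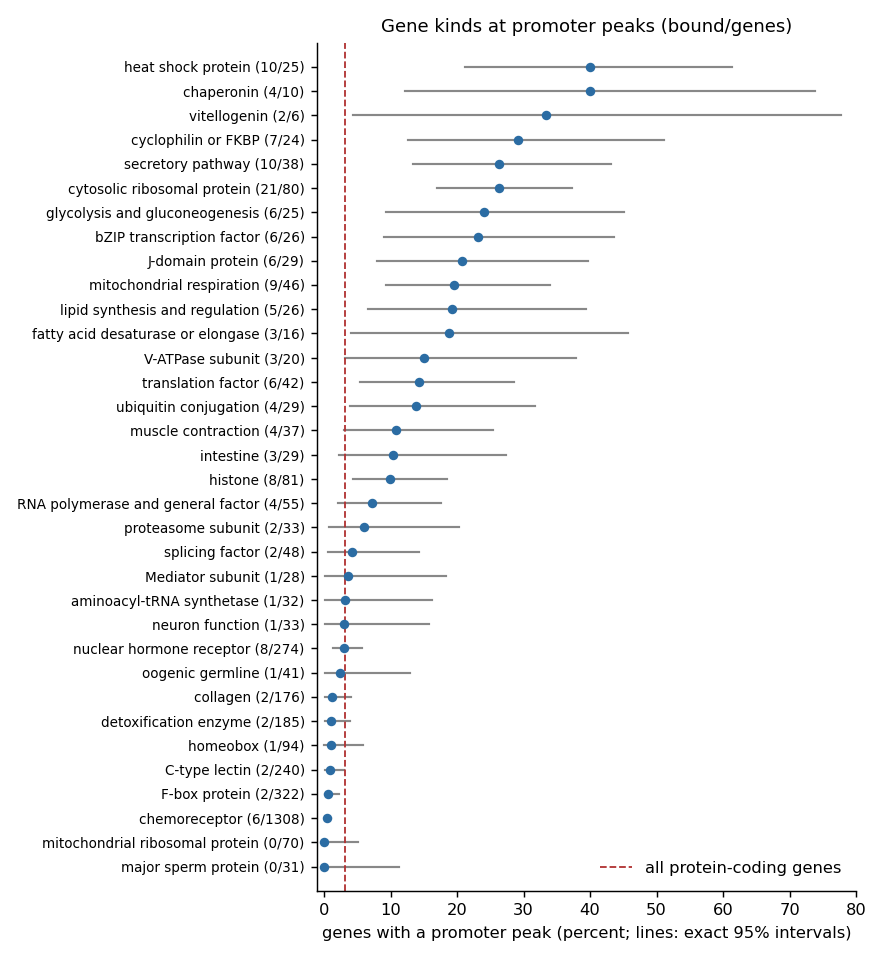
Percent of genes with a promoter peak (x) for each of 34 lists of genes (y, marked and total genes in brackets), with exact 95% intervals as lines and the share over all protein-coding genes, 3.11%, as a dashed line. Heat shock protein and chaperonin genes are at 40%, and chemoreceptor genes at 0.459%.

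Lists differ in how many of their genes have a divergent partner. Of the 10 marked heat shock genes 7 had a divergent peak, while 11 of all 25 genes of that list (44%) have a divergent partner in the annotation. For cytosolic ribosomal protein genes the numbers were 9 of 21 marked genes and 33 of 80 genes (41.3%), for the secretory pathway 5 of 10 and 14 of 38 (36.8%), and for J-domain genes 4 of 6 and 9 of 29 (31.0%). Other lists with many marked genes had few such partners. For bZIP factors the numbers were 1 of 6 marked genes and 1 of 26 genes (3.85%), for glycolysis and gluconeogenesis 1 of 6 and 4 of 25 (16%), and for vitellogenin genes none of 2 and none of 6. Over all genes the share was 12.2%, and 12 of the 16 lists whose interval lay above 3.11% had a higher share than this. The other lists varied as well. Their share was 45.8% for splicing factors, 45.5% for proteasome subunits and 17.1% for F-box genes. It was 4.01% for nuclear hormone receptors and 3.75% for chemoreceptors. The count of 12 does not therefore set the more often marked lists apart. The part that arrangement has in the counts of these lists was not tested.

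Short motifs were searched by their letters on both strands in the 150 bp to each side of each summit. The shares were set beside those in windows of the same length, from 250 bp before to 50 bp after the 5' end, at all 19973 promoters. The peak windows had a median GC content of 41.0%, against 34.2% in all promoters, and its part in the motif counts was not tested. A match is a match of letters and does not show binding.

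The heat shock element in its paired form GAANNTTC was in 22% (18.6 to 25.6%) of peak windows and in 18.6% of all promoters. A longer form, the same letters extended by a further unit, was in 44 of 560 windows (7.86%, 5.77 to 10.4%), against 1.97% of all promoters. It was in 9 of 29 peaks at protein folding genes (31.0%, 15.3 to 50.8%), in 6 of the 25 strongest peaks, and in none of the 25 peaks at cytosolic ribosomal protein genes (exact interval up to 13.7%). Peaks at no protein folding gene had it in 35 of 531 cases (6.59%, 4.63 to 9.05%). It was also in 8.82% of peaks between genes and in 7.65% of peaks in gene bodies, so it was not a feature of promoters alone.

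Among the peaks with the longer form were those of F44E5.4 and F44E5.5, R107.5, tent-5, pck-2, rpn-3 and hsp-110, and hsp-16.41 and hsp-16.2. The windows of rpn-3 and hsp-110 and of F44E5.4 and F44E5.5, printed above, show the paired letters close to the summit. Over the 44 windows the longer form stood at a median of 30 bp from the summit, against 54 bp for the paired form over its 123 windows.

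Several other motifs were more frequent in the peak windows than in all promoters. CTGCGTCTC was in 10% (7.64 to 12.8%) against 2.93%, at 45 one-gene and 10 divergent peaks and at a median of 38 bp from the summit. Its share was 15% in the strongest group by signal, then 14.3%, 8.57% and 2.14%. The E-box CACGTG was in 13.9% (11.2 to 17.1%) against 5.85%, in 15.4% of one-gene and 7.45% of divergent peaks, and in 19.4% of peaks between genes. The E2F site TTTCGCGC was in 4.11% (2.62 to 6.10%) against 1.14%, in 3.12% of one-gene and 8.51% of divergent peaks. The GC box GGGCGG (13.4% against 7.84%), the GAGA repeat GAGAGAGA (6.96% against 3.54%) and the CRE core TGACGT (15% against 10.4%) were also more frequent. Most of these were not features of promoters alone. Between genes and in gene bodies, CTGCGTCTC was in 11.0% and 7.34% of peaks and the E2F site in 3.23% and 2.14%. The GAGA repeat was there in 8.82% and 6.73%, the CRE core in 14.4% and 13.1%, and the GC box in 9.25% and 8.56%. The E-box was in 20.8% of peaks in gene bodies.

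The peak windows are centred on summits and the promoter windows on 5' ends. Like-placed windows at the 621 marked genes, from 250 bp before to 50 bp after the 5' end, were therefore also counted. Their median GC content was 37.2%, against 34.2% in all promoters, and its part in the counts below was not tested. There the E-box was in 7.73% (5.75 to 10.1%) and the CRE core in 12.7% (10.2 to 15.6%), intervals that held the 5.85% and 10.4% of all promoters. CTGCGTCTC was in 6.76% (4.92 to 9.03%), the E2F site in 3.54% (2.23 to 5.31%), the GC box in 13.0% (10.5 to 15.9%), the GAGA repeat in 6.12% (4.37 to 8.30%) and the longer heat shock element in 5.64% (3.96 to 7.75%), each above the share of all promoters. The paired heat shock element was in 24.2% (20.8 to 27.7%).

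Motifs rich in A and T were less frequent in the peak windows. TATAAA, the TATA box, was in 22.9% (19.4 to 26.6%) against 38% of all promoters, and a run of 8 T in 17.9% (14.8 to 21.3%) against 32.5%. TGATAA, the site of GATA factors such as those of the intestine, was in 24.3% (20.8 to 28.1%) against 30.3%, and the splice acceptor TTTTCAG in 23.8% (20.3 to 27.5%) against 31.9%. Between genes and in gene bodies, TATAAA was in 23.2% and 15.6% of peaks and the run of T in 19.4% and 21.4%. TGATAA was there in 30.5% and 23.9%, and TTTTCAG in 16.1% and 19.3%. In the like-placed windows at the marked genes TATAAA was in 30.1% (26.5 to 33.9%) and the run of T in 26.4% (23.0 to 30.1%), below all promoters, while TGATAA at 27.9% (24.4 to 31.6%) and TTTTCAG at 34.8% (31.0 to 38.7%) had intervals that held their share. The CCAAT box (42% against 45.7%), the SKN-1 site ATGATGA (8.57% against 8.75%), the forkhead site GTAAACA (4.64% against 4.77%) and the ETS core CCGGAA (8.93% against 8.60%) had intervals that held the share of all promoters.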

How the data were processed

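Peak lists of both samples and of each sample alone were used as deposited. Reads had been placed on ce11, per the labels. Which aligner and which peak caller were used is not given in the sources used here. The signal, the score and the summit position of each peak were made by the authors. For the stricter threshold of 0.001, the −log10 of the global IDR was read from the authors' ranked lists. An input and an untagged strain were not used here.

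Protein-coding 5' ends (29314) and small RNA genes came from Ensembl release 115 (WBcel235) and sequences from RefSeq. A main peak counted as found in a sample if it shared at least 1 bp with that sample's thresholded list, and its value there was the highest of all ranked peaks that it overlapped. A divergent peak had exactly 2 genes within 500 bp, with the minus-strand 5' end left of the plus-strand one. Positions count from 1. Intervals treat peaks and genes as independent. The sorting into classes was tested on simulated data, with 600 of 600 planted points placed rightly. Planted genes had a single start each and planted pairs had heads close together, so genes with inner starts and wide pairs were not tried. Python 3.11.15, numpy 2.4.6, scipy 1.17.1 and matplotlib 3.10.9 were used.

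The members, the 34 gene lists and the 16 motifs were chosen with earlier results of these data known. Genes were named by rule: those of the 25 strongest peaks, the 2 strongest in each list, the 5 strongest divergent peaks and the 2 peaks on either side of the 500 bp limit. Other genes (C34B4.2, the same-kind pairs, nhr-40, xbp-1, rpl-31, his-58, further heat shock genes) were chosen after their values were seen. Alternatives were windows of 250 and 1000 bp, the conservative list, the stricter IDR, other distances from small RNA genes, the outermost 5' end of each gene, a 50% overlap, a motif window of 75 bp to each side, each sample's list alone and, chosen after seeing the data, leaving out peaks of signal under 10.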

Additional observations from a re-analysis of the deposited data

Results flagged for a closer look

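Promoter peaks outside the main list were looked for in the lists of the single samples, with the same distances. The list of replicate 1 held 14 such peaks that overlap no main peak, of 255 that meet the rule there, and the list of replicate 2 held 36, of 340. They drew attention because they are signals outside the list that the report describes. The strongest in replicate 1 lay 89 bp upstream of iff-2, with a signal of 136, and these genes were named after their values were seen. Of the 59 peaks of the ranked list at or above the score minimum of 830 that are not in the main list, none met the rule.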

How the results depend on the processing

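Summits kept a median upstream of the 5' end, and one-gene signal stayed below divergent signal, under every alternative run. Of the 34 gene lists, 11 changed sides of the share of all genes under at least 1 alternative. Among these were 3 of the 16 lists whose interval lay above that share. V-ATPase genes were at 0 of 20 with a window of 250 bp (1.93% of all genes), lipid synthesis genes at 0 of 26 at the stricter IDR (1.4%), and bZIP genes at 0 of 26 in the list of replicate 1 alone (1.48%). With a window of 250 bp there were 368 promoter peaks, 33 of them divergent (8.97%), with median offsets of −76.5 bp over all, −77 bp at one-gene and −63 bp at divergent promoters, a one-gene median signal of 97.8 and 1.93% of genes marked. With 1000 bp the offsets were −165, −182.5 and −137 bp, and 4.25% of genes were marked. A global IDR of 0.001 left 226 peaks, 165 at one gene and 57 divergent (25.2%), with 87.6% upstream, offsets of −159, −173 and −112 bp, medians of 155 and 162 (ratio 0.959), and 1.4% of genes marked. The conservative list gave offsets of −146 bp at one-gene and −112 bp at divergent promoters. Without the distance from small RNA genes the one-gene offset was −155.5 bp, its signal 97.2 and the share of genes 3.54%, and with over 1000 bp that offset was −156 bp. With outermost 5' ends the offsets were −149 bp over all and −169 bp at one gene, with 2.82% of genes. Without peaks of signal under 10 the one-gene median was 95.8. An overlap of 50% gave 27.7% found in both samples.

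With 1 sample's list alone, promoter peaks numbered 255 to 340, with 201 to 261 at one gene and 48 to 74 divergent (18.8 to 21.8%). The share upstream was 78.2 to 82.7%, and offsets were −158 to −149 bp over all, −163 to −161 bp at one gene and −136.5 to −126.5 bp at divergent promoters. Signal medians were 66.8 to 69.3 at one gene and 74.8 to 85.8 at divergent promoters (ratio 0.808 to 0.893), and 1.48 to 1.98% of genes were marked. With a motif window of 75 bp to each side, which is shorter and so holds fewer matches, 14 of 16 motif shares moved. The E-box was then in 8.39% and the longer heat shock element in 5.71% of peaks, while CTGCGTCTC at 8.21% and the E2F site at 3.04% stayed within their error. Of the shares for gene lists, 17 of 34 moved at the stricter IDR and 7 of 34 with a window of 250 bp; the cause was not tested. No paired analysis was possible because there was 1 group only. Depth is unknown, and the list of replicate 1 is the shorter, which limits what can be found in both.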
